A study of Saccharomyces cerevisiae with 24 samples.

Results

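The 10 genes described here encode enzymes of the pentose phosphate pathway in Saccharomyces cerevisiae, with their paralogs. RPE1, the epimerase gene of the non-oxidative branch, is not among them and is given with the related genes. They were chosen by name: ZWF1, SOL3, SOL4, GND1 and GND2 of the oxidative branch, and RKI1, TKL1, TKL2, TAL1 and NQM1 of the non-oxidative branch. All 10 were found among the 7126 genes counted, and all 10 passed the filter on low counts that left 6089 genes for testing. The set was proposed with earlier results of these libraries known, among them the rise of ZWF1 in the crz1 strain at 72 h, so that value is given as a description and the other tests are not independent evidence that the pathway was affected.

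The study measured polyA RNA of haploid yeast in the BY4741 background, in 24 libraries that form 8 groups of 3. The crz1 strain was MATa his3delta1 ura3delta0 leu2delta0 lys2delta0 with crz1delta::LEU2 and HYG-TEFp-GFP(Y66F), a GFP variant behind the TEF promoter, at chromosome VI 181901 to 182001. The crz1 cnb1 strain carried the same alleles and also cnb1delta::KanMx. Both strains therefore lacked Crz1, the transcription factor that calcineurin dephosphorylates. The second also lost the regulatory subunit, Cnb1, without which this calcium-activated phosphatase does not work. Cells grew in synthetic medium with ammonium chloride as nitrogen source. Each strain had an untreated group (0 h) and groups held in 200 mM CaCl2 for 12, 48 or 72 h, with cultures diluted at 12 h intervals to keep them in logarithmic growth. The series set out to find calcium-stress responses that need calcineurin and do not need Crz1. No library without CaCl2 was taken at 12, 48 or 72 h, so an effect of CaCl2 and an effect of time in culture cannot be told apart.

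The pentose phosphate pathway branches from glycolysis at glucose-6-phosphate. Its oxidative branch releases carbon dioxide and yields ribulose-5-phosphate while reducing NADP to NADPH, the reductant for biosynthesis and for the glutathione and thioredoxin systems. Its non-oxidative branch interconverts sugar phosphates and supplies ribose-5-phosphate for nucleotides and erythrose-4-phosphate for aromatic amino acids. In budding yeast several steps have a pair of paralogs, of which 1 carries most of the activity in growing cells, and loss of ZWF1 makes cells sensitive to oxidants and dependent on organic sulfur. The general stress factors Msn2 and Msn4 bind the stress response element, Yap1 activates genes in response to oxidants, and Stb5 is known to activate genes of this pathway.

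Library totals lay between 21582317 and 22016465 counts. CRZ1 had 0 to 4 counts in every library, and CNB1 had 1581 to 3043 counts in crz1 libraries against 3 to 22 in crz1 cnb1 libraries. The MATa markers AGA2, STE2 and BAR1 were read in every library, although 7 of 7 MATa markers fell by 72 h in both strains. Of 4 alpha markers, the defining pheromone genes MF(ALPHA)1 and MF(ALPHA)2 stayed at or under 1.47 CPM (counts per 1000000), STE3 lay between 0.459 and 13.7 CPM and SAG1 between 17.6 and 40.6 CPM. By 72 h in crz1, SAG1 rose (log2 change 0.91 ± 0.21) and the other 3 fell. On the first principal component, 3 libraries stood apart from their groups: replicate 1 of both untreated groups (-21.1 and -19.5, against -38.0 to -39.8 in the other untreated libraries) and replicate 1 of crz1 at 48 h (23.6, against -0.32 and -3.05). Both untreated groups therefore hold such a library in every comparison against 0 h, and results whose call changed without the 3 libraries are named below. The 12 h groups spread as widely on this component (17.1, 5.24 and -5.65 in crz1, and 15.2, 5.48 and -6.04 in crz1 cnb1). Replicate 1 had the highest value in both strains at 0, 12 and 48 h. A high value was thus not particular to the 3 libraries, which were chosen after seeing the data. The labels do not say whether replicates came from separate cultures, so p-values measure the spread between these samples, which may be technical.

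Levels between genes can be compared in TPM, which accounts for length. In untreated crz1 cells TAL1 had the highest level, 622 ± 72.3 TPM (mean ± SD, n = 3), followed by GND1 with 525 ± 30.8 TPM, TKL1 with 429 ± 21.4 TPM and SOL3 with 257 ± 5.52 TPM. RKI1 stood at 157 ± 4.54 TPM and ZWF1, which encodes the first enzyme of the oxidative branch, at only 86.1 ± 5.99 TPM. The second paralogs were far lower, with 12.8 ± 0.454 TPM for NQM1, 11.1 ± 6.20 TPM for SOL4, 4.85 ± 0.223 TPM for GND2 and 2.40 ± 0.303 TPM for TKL2. In this order the libraries overlapped between TAL1 and GND1, between NQM1 and SOL4 and between SOL4 and GND2, and the other neighbours were separate. The crz1 cnb1 cells gave means of 608 TPM for TAL1, 489 TPM for GND1, 424 TPM for TKL1, 83.2 TPM for ZWF1 and 2.34 TPM for TKL2. How reads that match both paralogs of a pair were counted was not stated. The coding sequences of SOL3 and SOL4 were 56.3% identical in a global alignment, TAL1 and NQM1 67.8%, TKL1 and TKL2 69.1% and GND1 and GND2 78.6%, with no identical run longer than 20 bases. None of the 10 overlapped another annotated gene in the R64 build, and each has 1 coding exon.

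The windows upstream of the members the results turn on are printed first. ZWF1 and TKL2 had the largest rises of their branches at 12 h, GND2 and NQM1 are low paralogs that, with TKL2, were called lower in crz1 cnb1 at 72 h, and GND1 is the abundant paralog of GND2. Each sequence is the 300 bases before the start codon, read 5′ to 3′ on the strand of the gene from the R64 genome. Capitals mark the stress response element AGGGG, or CCCCT on the other strand, and the Yap1 sites TTACTAA and TTAGTCA on either strand. The windows are chrXIV:197944-198243 on the minus strand for ZWF1 (YNL241C), chrII:476438-476737 on the minus strand for TKL2 (YBR117C), chrVII:1004324-1004623 on the plus strand for GND2 (YGR256W), chrVII:581437-581736 on the minus strand for NQM1 (YGR043C), and chrVIII:470660-470959 on the plus strand for GND1 (YHR183W).
ZWF1: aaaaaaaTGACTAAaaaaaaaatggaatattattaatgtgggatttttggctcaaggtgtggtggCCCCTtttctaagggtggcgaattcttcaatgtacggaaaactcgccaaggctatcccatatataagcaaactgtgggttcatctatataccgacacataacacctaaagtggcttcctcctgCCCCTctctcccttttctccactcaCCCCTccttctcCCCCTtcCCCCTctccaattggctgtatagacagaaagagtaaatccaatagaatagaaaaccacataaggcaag
TKL2: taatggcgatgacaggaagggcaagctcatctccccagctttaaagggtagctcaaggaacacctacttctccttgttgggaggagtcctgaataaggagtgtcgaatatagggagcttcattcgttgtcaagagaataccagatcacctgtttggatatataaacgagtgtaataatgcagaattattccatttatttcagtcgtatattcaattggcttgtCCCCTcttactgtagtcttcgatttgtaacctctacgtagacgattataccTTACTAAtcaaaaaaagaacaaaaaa
GND2: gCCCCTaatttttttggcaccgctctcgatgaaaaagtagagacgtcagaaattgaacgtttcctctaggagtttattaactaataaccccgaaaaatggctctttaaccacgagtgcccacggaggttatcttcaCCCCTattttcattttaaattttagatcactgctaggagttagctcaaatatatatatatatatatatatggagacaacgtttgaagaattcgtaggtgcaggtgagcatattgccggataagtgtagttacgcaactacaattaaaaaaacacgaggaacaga
NQM1: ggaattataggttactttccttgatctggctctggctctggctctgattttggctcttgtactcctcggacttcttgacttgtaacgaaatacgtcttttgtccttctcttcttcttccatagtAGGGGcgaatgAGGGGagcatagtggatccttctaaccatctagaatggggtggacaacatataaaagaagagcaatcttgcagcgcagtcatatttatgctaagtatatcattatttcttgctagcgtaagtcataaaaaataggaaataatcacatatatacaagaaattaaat
GND1: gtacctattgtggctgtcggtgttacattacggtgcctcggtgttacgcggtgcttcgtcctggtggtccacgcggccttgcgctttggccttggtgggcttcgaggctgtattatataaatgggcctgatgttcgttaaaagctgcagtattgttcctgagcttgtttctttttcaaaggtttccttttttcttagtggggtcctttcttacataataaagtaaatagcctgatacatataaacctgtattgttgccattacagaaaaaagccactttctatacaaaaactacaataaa
The ZWF1 window holds 5 stress response elements, which start 235, 112, 87, 75 and 68 bases before the start codon, and TTAGTCA as its complement TGACTAA at 293 bases. TKL2 holds 1 element at 77 bases and the Yap1 site TTACTAA, 26 bases before the start codon. GND2 holds 2 elements, at 299 and 164 bases, NQM1 holds 2, at 176 and 165 bases, and GND1 holds neither motif. Over all 10 members, 8 windows held at least 1 AGGGG on either strand, all but those of GND1 and RKI1, against 22.2% of 6001 windows of the same length before protein-coding genes. TTACTAA was in 1 member window and 7.82% of all windows, and TTAGTCA in 1 and 3.68%. The core of the Stb5 site, CGGNC or CGGNG on either strand, was in 7 member windows and 64.7% of all. In TAL1 an AGGGG match overlapped an Stb5 core; no other pair of these motifs overlapped in a member window. A match is a run of letters and does not show that a factor binds there.

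In the oxidative branch, ZWF1, which encodes glucose-6-phosphate dehydrogenase and catalyses the committed step, rose in both strains. The ratio of mean levels to the untreated group was 4.27, 3.98 and 4.76 at 12, 48 and 72 h in crz1, and 2.77, 3.05 and 3.99 in crz1 cnb1. Values are given from here as TMM-normalised CPM (normalised CPM), which compare one gene across libraries. Untreated crz1 libraries gave 157, 163 and 150 normalised CPM, and the 12 h libraries gave 682, 675 and 651. At 48 h the values were 718, 564 and 588, and at 72 h 625, 740 and 870. Every treated library stood above every untreated one. The rise was 2.10 ± 0.19 on the log2 scale (± SE) at 12 h (edgeR adjusted p = 8.2e-08) and 1.99 ± 0.19 at 48 h (adjusted p = 1.4e-07), and at 72 h it measured 2.25 ± 0.19. Without calcineurin, in crz1 cnb1 cells, ZWF1 went from 192, 139 and 131 normalised CPM to 537, 426 and 319 at 12 h, 541, 367 and 502 at 48 h and 584, 598 and 661 at 72 h. Here too no treated library overlapped the untreated ones, and the log2 changes were 1.47 ± 0.18 (edgeR adjusted p = 1e-05), 1.61 ± 0.18 (2.9e-06) and 2.0 ± 0.19 (1.4e-07).

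SOL3 and SOL4 encode 6-phosphogluconolactonases, which hydrolyse the lactone that Zwf1 makes. SOL3, the abundant paralog, had 232, 228 and 233 normalised CPM in untreated crz1 cells and 302, 312 and 354 at 12 h, 275, 359 and 427 at 48 h and 352, 288 and 294 at 72 h. It rose by a log2 value of 0.48 ± 0.12, 0.61 ± 0.12 and 0.43 ± 0.12 at the 3 times (edgeR adjusted p = 0.0049, 0.00074 and 0.0079). The 48 h call was lost when the fit held only the libraries compared, and the 72 h call did not hold without replicate 1 of crz1 at 72 h, which left 0.33 (adjusted p = 0.0535). In crz1 cnb1 the untreated values of 237, 232 and 240 were followed by 300, 278 and 323 at 12 h and ended lower, at 203, 205 and 212, at 72 h. The change there was 0.35 ± 0.12 at 12 h (adjusted p = 0.0502) and -0.19 at 72 h (adjusted p = 0.22), neither of which passed the threshold. Without the 3 libraries that stood apart the 12 h change was 0.34 and passed (adjusted p = 0.0223). SOL4 was near 10 normalised CPM and no change passed the test in either strain. Its untreated values were 3.60, 13.5 and 13.8 normalised CPM in crz1 and 2.75, 11.2 and 10.5 in crz1 cnb1, so replicate 1 was the low library in both strains. In those same 2 libraries the summed TPM of 14 general stress genes (targets of Msn2 and Msn4) was 761 and 630, against 1163 to 1537 in the other untreated libraries, and the part of this in the SOL4 values was not tested. At 72 h SOL4 reached 18.6, 22.6 and 22.8 normalised CPM in crz1, a log2 difference of 1.05 ± 0.43 (edgeR adjusted p = 0.056). Without the 3 libraries that stood apart it was 0.64 ± 0.26 and passed (adjusted p = 0.0457). It also passed without untreated replicate 3 (1.32, edgeR adjusted p = 0.0459). DESeq2, and edgeR with the replicate as a block, called all 10 members there, SOL4 among them. In crz1 cnb1 it reached 14.2, 13.3 and 12.3, a difference of 0.71 ± 0.43 (adjusted p = 0.21), and 0.29 without those libraries, where its 48 h change passed as a fall (-0.70, adjusted p = 0.0453).

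GND1 and GND2 encode 6-phosphogluconate dehydrogenases, the second NADPH-forming step. GND1 had 929, 953 and 895 normalised CPM in untreated crz1 cells and 1290, 1488 and 1619 at 12 h, 1044, 821 and 1133 at 48 h and 1484, 1086 and 1168 at 72 h. It was above the untreated libraries at 12 and 72 h and overlapped them at 48 h. The log2 changes were 0.66 ± 0.14 (edgeR adjusted p = 0.001), 0.11 ± 0.14 (0.56) and 0.43 ± 0.14 (0.017). The call at 72 h did not hold without untreated replicate 3 (0.41, adjusted p = 0.0572), without 72 h replicate 1 (0.29, adjusted p = 0.121) and on the TPM scale. GND1 in crz1 cnb1 cells rose at 12 h, from 897, 891 and 857 to 1624, 1447 and 1630 normalised CPM (log2 change 0.83 ± 0.14, adjusted p = 0.00028), and was back at 883, 925 and 928 at 72 h. The 72 h libraries overlapped the untreated ones, with a log2 difference of 0.05. GND2, the scarce paralog, had 8.08, 8.51 and 9.26 normalised CPM in untreated crz1 cells, 9.22, 12.9 and 17.0 at 12 h, 9.85, 12.4 and 20.4 at 48 h and 21.6, 17.2 and 43.7 at 72 h. Its rise passed the test at 72 h only among these times, with a log2 change of 1.67 ± 0.29 (edgeR adjusted p = 0.00013), and replicate 3 was the highest library at each treated time. The crz1 cnb1 values were 8.29, 9.13 and 7.84 untreated and 7.41, 9.06 and 10.9 at 72 h, which overlapped, with a log2 difference of 0.11. Between these times they were 7.33, 6.57 and 5.57 at 12 h and 7.38, 6.52 and 6.74 at 48 h, all below the untreated libraries. The log2 changes there were -0.37 (edgeR adjusted p = 0.38) and -0.29 (0.50), and neither passed.

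In the non-oxidative branch, the largest change of all 10 genes was that of TKL2, the scarce transketolase paralog. Transketolase moves 2-carbon units between sugar phosphates. TKL2 had 6.09, 6.33 and 5.22 normalised CPM in untreated crz1 cells, 43.7, 41.3 and 32.6 at 12 h, 42.0, 30.7 and 35.1 at 48 h and 55.6, 54.6 and 93.9 at 72 h. No treated library came near an untreated one, and the ratio of means at 72 h was 11.6. The log2 changes were 2.74 ± 0.23 (edgeR adjusted p = 4.2e-08), 2.61 ± 0.23 (8e-08) and 3.53 ± 0.24 (1.1e-09). The crz1 cnb1 libraries went from 6.05, 5.50 and 6.08 normalised CPM to 24.3, 18.2 and 15.7 at 12 h, 24.9, 19.0 and 20.5 at 48 h and 29.0, 30.0 and 47.2 at 72 h. The groups were again separate, with log2 changes of 1.72 ± 0.23, 1.87 ± 0.23 and 2.59 ± 0.23 (edgeR adjusted p = 2.1e-05, 6e-06 and 7.5e-08). TKL1, the abundant transketolase gene, moved less. It had 1045, 1079 and 1030 normalised CPM in untreated crz1 cells, 1535, 1728 and 1842 at 12 h, 1346, 893 and 1114 at 48 h and 1856, 1405 and 1567 at 72 h. It rose at 12 h by a log2 value of 0.70 ± 0.14 (adjusted p = 0.0007) and at 72 h by 0.61 ± 0.14 (adjusted p = 0.0015), while the 48 h libraries overlapped the untreated ones. TKL1 in crz1 cnb1 cells rose at 12 h (0.63 ± 0.14, adjusted p = 0.0031), and the 72 h difference of 0.33 ± 0.14 did not pass (adjusted p = 0.071), although it did without the 3 libraries that stood apart (0.37, adjusted p = 0.0387).

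TAL1 encodes transaldolase, which moves 3-carbon units, and NQM1 encodes its paralog. TAL1 had 649, 814 and 796 normalised CPM in untreated crz1 cells and 1361, 1448 and 1488 at 12 h, 1186, 1293 and 1432 at 48 h and 1823, 1418 and 1573 at 72 h. All treated libraries were above the untreated ones, and the log2 changes were 0.93 ± 0.13, 0.79 ± 0.13 and 1.09 ± 0.13 (edgeR adjusted p = 1.8e-05, 0.00011 and 2.2e-06). TAL1 in crz1 cnb1 cells rose from 771, 693 and 793 to 1417, 1320 and 1551 normalised CPM at 12 h, by the same 0.93 ± 0.13 (adjusted p = 4.2e-05). It then stood at 1079, 817 and 945 at 48 h and 859, 948 and 1015 at 72 h, still above the untreated libraries but with differences of 0.33 ± 0.13 and 0.32 ± 0.13 that did not pass (adjusted p = 0.067 and 0.057); without the 3 libraries that stood apart the 72 h one was 0.34 and passed (adjusted p = 0.0446). NQM1 differed in its timing. In crz1 cells it had 14.8, 15.7 and 15.7 normalised CPM untreated, 25.9, 23.5 and 25.8 at 12 h, 32.6, 84.6 and 108 at 48 h and 72.8, 73.4 and 107 at 72 h. Replicate 1 was the low library at 48 h, and it is the library that stood apart there; without the 3 such libraries the 48 h change was 2.55 ± 0.19. The log2 changes were 0.70 ± 0.27 at 12 h (adjusted p = 0.047), 2.29 ± 0.27 at 48 h (4.2e-06) and 2.46 ± 0.27 at 72 h (1.2e-06). The 12 h call was lost when any 1 of the 6 libraries was left out (0.67 to 0.75, adjusted p = 0.0682 to 0.104) and on the TPM scale. NQM1 in crz1 cnb1 cells went from 11.6, 15.1 and 12.1 normalised CPM to 22.3, 30.2 and 26.6 at 48 h and 28.0, 34.3 and 32.1 at 72 h, with log2 changes of 1.03 ± 0.27 and 1.28 ± 0.27 (adjusted p = 0.008 and 0.00097).

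RKI1, which encodes ribose-5-phosphate isomerase, was the 1 member that ended lower in both strains. It had 144, 147 and 147 normalised CPM in untreated crz1 cells and 116, 113 and 108 at 72 h, and 135, 170 and 160 untreated and 113, 109 and 124 at 72 h in crz1 cnb1 cells. The groups did not overlap in either strain. The log2 changes were -0.38 ± 0.15 (edgeR adjusted p = 0.047) and -0.42 ± 0.15 (adjusted p = 0.034). Neither call was firm: in crz1 it was lost when any 1 of the 6 libraries was left out (-0.36 to -0.41, adjusted p = 0.0714 to 0.106), and in crz1 cnb1 it was lost without 0 h replicate 2 or 3 or 72 h replicate 1 or 2 (-0.35 to -0.41, adjusted p = 0.0891 to 0.13).

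**Figure D1:**
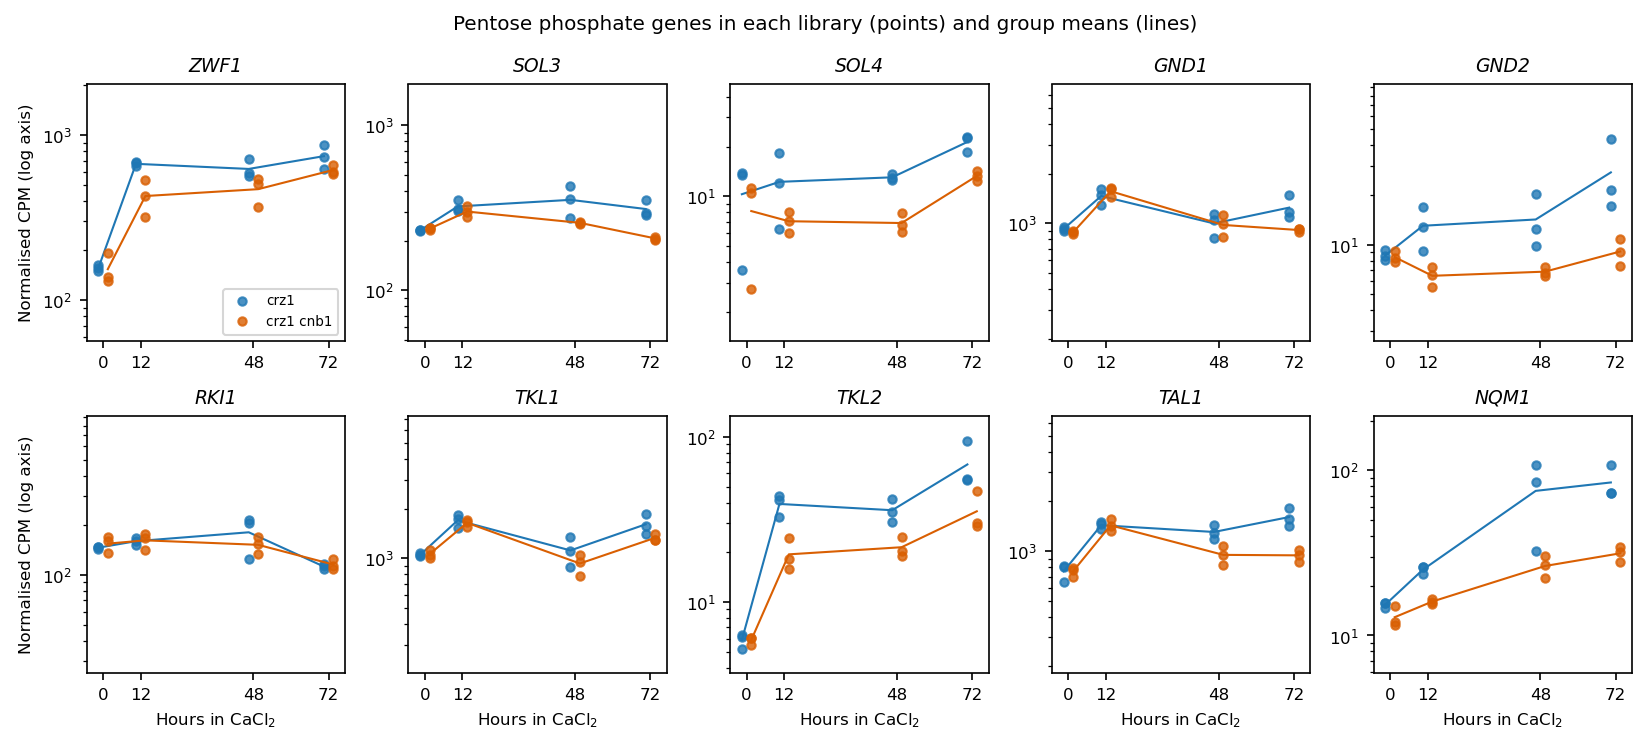
Each panel plots 1 gene's normalised CPM on a log axis against hours in 200 mM CaCl2; points are the 3 libraries of a group, lines join group means, and the 2 strains have separate colours. ZWF1 and TKL2 climb in both strains by 12 h, NQM1 climbs later and further in crz1, and GND2 climbs in crz1 while it stays between 5.57 and 10.9 normalised CPM in crz1 cnb1.

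Counted over the set, 7 of 10 members rose in crz1 cells at 12 h and 5 at 48 h. At 72 h, where ZWF1 is given only as a description, 7 of the other 9 rose and RKI1 fell. These counts stand beside 17.6%, 19.8% and 22.6% of all 6089 genes called higher in the same comparisons, and 19.8% called lower at 72 h. The median log2 change over the 10 members, ZWF1 included, was 0.68, 0.67 and 1.07 at the 3 times, against -0.03 over all genes at 72 h. Since it holds the ZWF1 value, the 72 h median is a description only. In crz1 cnb1 cells 5 members rose at 12 h, 3 at 48 h and 3 at 72 h, where RKI1 fell, beside 12.9%, 14.3% and 20.1% of all genes called higher and 15.7% called lower at 72 h. The 3 that rose at 48 and 72 h were ZWF1, TKL2 and NQM1. The members' median change there was 0.49, 0.13 and 0.33, against 0.01 over all genes at 72 h. Leaving out 1 library at a time gave 6 to 8 members called at 72 h in crz1, ZWF1 among them, and 3 or 4 in crz1 cnb1. On the log2(TPM + 1) scale the median of all genes shifted by -0.16, -0.25 and -0.10 in crz1 at 12, 48 and 72 h, and the small changes of GND1 and TKL1 at 48 h and of RKI1 at 12 and 48 h then turned negative (-0.23, -0.26, -0.03 and -0.06). None of these was called in the count test, but RKI1 at 48 h was called higher without the 3 libraries that stood apart (0.45, adjusted p = 0.0049). On that TPM scale 531, 386 and 878 of 6151 genes were called higher in crz1 at the 3 times and 1304, 1795 and 1336 lower, so the share called higher depends on the scaling. In bulk RNA, a change in the share of cells that express a gene and a change per cell cannot be told apart.

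**Figure D2:**
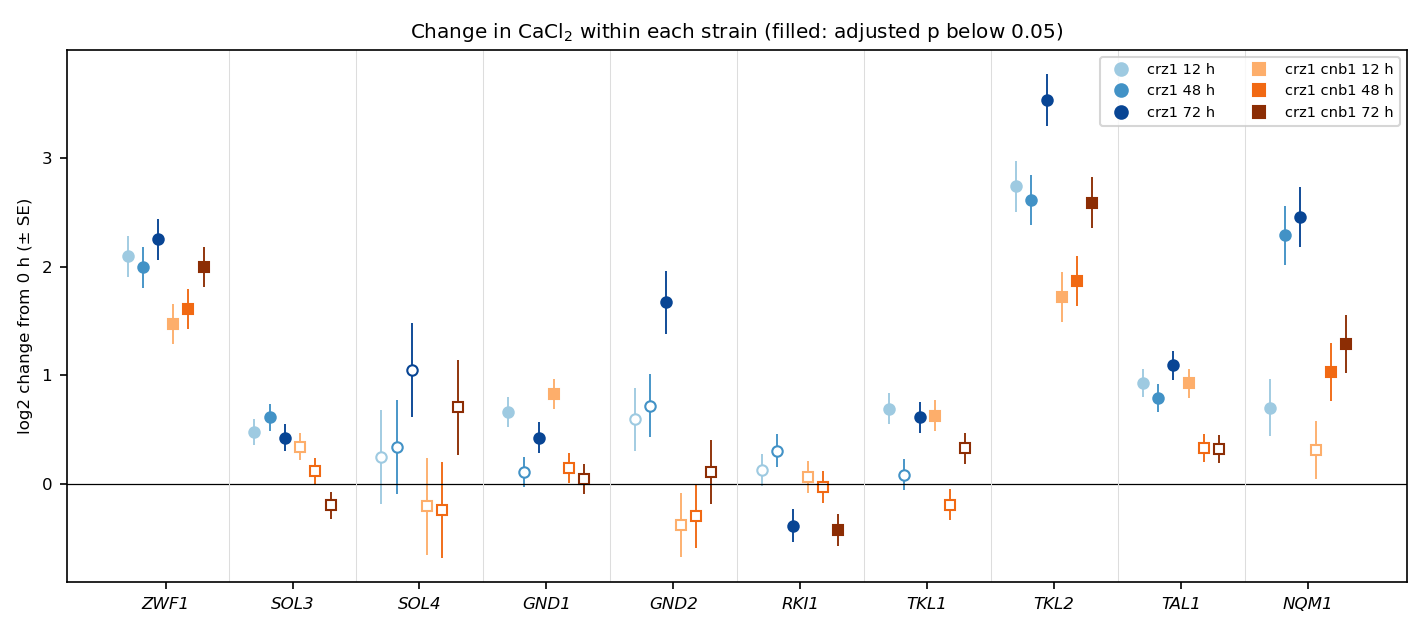
Log2 change of each member against the untreated libraries of its strain at 12, 48 and 72 h, as points with bars of ± 1 SE from the edgeR fit; filled points have an adjusted p below 0.05. TKL2 is highest in both strains at each time (3.53 in crz1 and 2.59 in crz1 cnb1 at 72 h), and RKI1 is below 0 at 72 h in both (-0.38 and -0.42).

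The strains were next compared at the same time, which asks what loss of calcineurin changes where Crz1 is absent from both. Untreated, the members did not separate the strains: for all 10 genes the libraries overlapped, and the log2 differences (crz1 cnb1 minus crz1) ran from -0.34 for SOL4 to 0.08 for RKI1. edgeR called 0 members and 0 were below an unadjusted p of 0.05; DESeq2 also called 0, and 0.0164% of all genes were called. In CaCl2, each member called between the strains at 12, 48 or 72 h was lower in the strain without calcineurin.

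At 12 h, 2 members were lower in crz1 cnb1, beside 2.09% of all genes called lower. These were TKL2, with 24.3, 18.2 and 15.7 normalised CPM against 43.7, 41.3 and 32.6, and ZWF1, with 537, 426 and 319 against 682, 675 and 651. The libraries did not overlap for either gene. The log2 differences were -1.01 ± 0.22 for TKL2 (edgeR adjusted p = 0.013) and -0.65 ± 0.18 for ZWF1 (adjusted p = 0.048). Replicate numbers paired the libraries in this comparison, and with the replicate as a block TKL2 was at -1.02 (adjusted p = 0.00755), ZWF1 at -0.66 (0.0226), and GND2 was also called, at -0.95 ± 0.25 (0.0274), against -1.0 ± 0.29 (0.058) without the block. TKL2 lost its call without crz1 replicate 2 (-0.97, adjusted p = 0.0615) and without crz1 cnb1 replicate 2 (-0.97, 0.0603) or 3 (-0.88, 0.0882). ZWF1 lost its call without any 1 of the crz1 replicates (-0.63 to -0.67) and without crz1 cnb1 replicate 2 or 3 (-0.65 and -0.47), with adjusted p between 0.0606 and 0.221. Both calls were also lost in a fit of only these libraries and on the TPM scale. Without the 3 libraries that stood apart, none of them from 12 h, both held and NQM1 (-0.65, adjusted p = 0.0127), SOL4 (-0.79, 0.0427) and GND2 (-1.01, 0.0438) were called too.

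At 48 h, 5 members were lower in crz1 cnb1, beside 3.05% of all genes. NQM1 had the largest difference, with 22.3, 30.2 and 26.6 normalised CPM against 32.6, 84.6 and 108 (log2 difference -1.51 ± 0.26, edgeR adjusted p = 0.0025), and no library of the strains overlapped. GND2 followed at -1.05 ± 0.29 (adjusted p = 0.042), TKL2 at -0.75 ± 0.21 (0.046), SOL3 at -0.46 ± 0.12 (0.034) and TAL1 at -0.46 ± 0.13 (0.043). NQM1 kept its call without any 1 library and lost it only in a fit of these libraries alone. The other 4 did not: TKL2 lost its call without any 1 of the 6 libraries (adjusted p = 0.052 to 0.143), GND2 and SOL3 without any but crz1 replicate 1 (0.0654 to 0.298 and 0.0656 to 0.199), and TAL1 without crz1 replicate 2 or 3 or crz1 cnb1 replicate 2 or 3 (0.0792 to 0.195). Without crz1 replicate 3 GND2 moved to -0.70 and SOL3 to -0.31. Without the 3 libraries that stood apart NQM1 was at -1.85, GND2 at -1.24, SOL3 at -0.60 and TAL1 at -0.51, all still called, while TKL2 was at -0.60 and was not (adjusted p = 0.0736). In that setting RKI1 (-0.45, adjusted p = 0.0042, against -0.25) and SOL4 (-0.87, 0.0165, against -0.92) were called as well. The summed TPM of the 14 general stress genes was 1271 to 2552 in crz1 and 1090 to 1174 in crz1 cnb1 at 48 h, which did not overlap. The part of this in the lower NQM1 and GND2 levels was not tested. Such a sum weighs abundant genes most, and HSP12 alone ranged from 122 to 1850 TPM over all libraries. Of the 14 genes, 1 was called lower and 0 higher in crz1 cnb1 than in crz1 at 48 h. Against 0 h in crz1, 2 were called higher and 3 lower at 48 h, with a median log2 change of -0.66. The median of all genes between the strains shifted by 0.26 on the log2(TPM + 1) scale at 48 h, where 1 member was called.

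At 72 h, 5 members were lower in crz1 cnb1, beside 2.81% of all genes, and the median difference over the 10 members was -0.64 against 0.01 over all genes. GND2 had 7.41, 9.06 and 10.9 normalised CPM against 21.6, 17.2 and 43.7, and NQM1 had 28.0, 34.3 and 32.1 against 72.8, 73.4 and 107. TAL1 had 859, 948 and 1015 against 1823, 1418 and 1573, and SOL3 had 203, 205 and 212 against 352, 288 and 294. In all 4 the strains were separate. The log2 differences were -1.59 ± 0.29 for GND2 (edgeR adjusted p = 0.0025), -1.43 ± 0.26 for NQM1 (0.0027), -0.77 ± 0.13 for TAL1 (0.0013) and -0.59 ± 0.12 for SOL3 (0.0056). These 4 calls held without any 1 library. TKL2 was the fifth, at -0.94 ± 0.21 (adjusted p = 0.0096), and lost its call without crz1 replicate 3 (-0.63, 0.115) and without crz1 cnb1 replicate 1 (-0.82, 0.0787) or 2 (-0.84, 0.0757), and on the TPM scale. GND1 differed by -0.45 ± 0.14 without passing (adjusted p = 0.058), and passed without the 3 libraries that stood apart (adjusted p = 0.0427). ZWF1 overlapped between the strains at 72 h, with a log2 difference of -0.28 (adjusted p = 0.39), and so did RKI1 at 0.04. The summed TPM of the 14 general stress genes was 2161 to 3205 in crz1 and 1633 to 2174 in crz1 cnb1 at 72 h, which overlapped and where 1 of them, ALD3, was called lower (-1.33 ± 0.22), and the part of this in the lower GND2 and NQM1 levels was not tested.

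**Figure D3:**
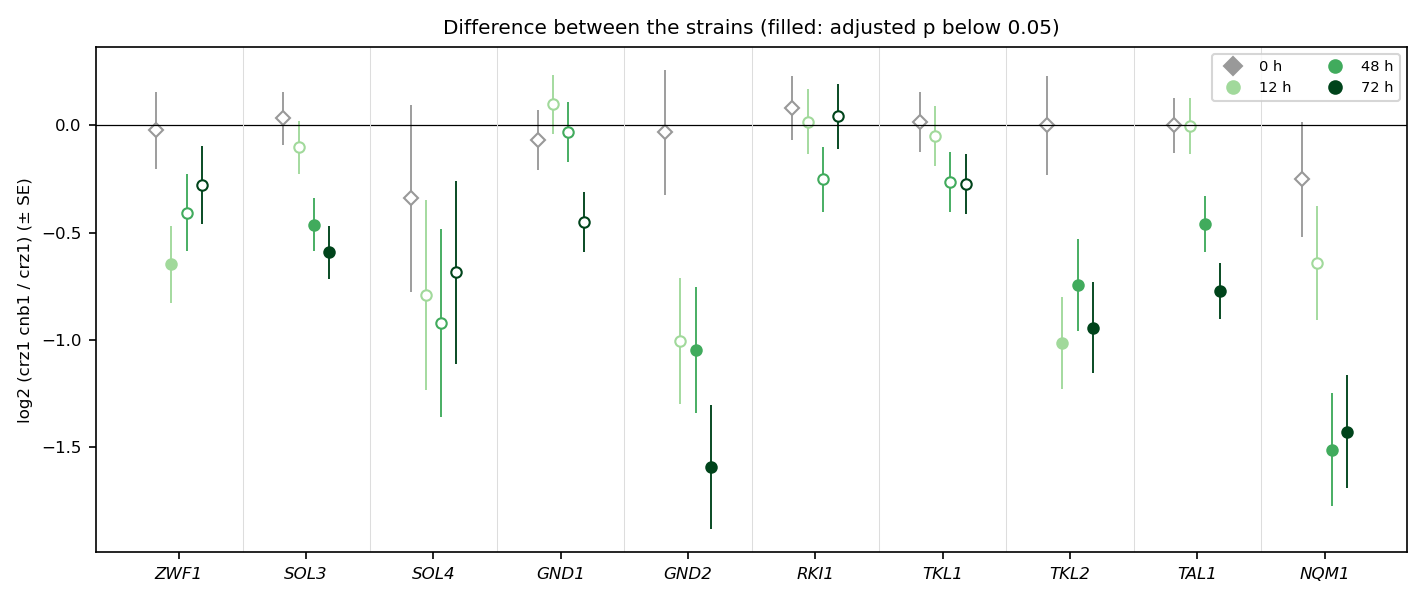
Log2 difference of each member, crz1 cnb1 minus crz1, at 0, 12, 48 and 72 h, as points with bars of ± 1 SE from the edgeR fit; filled points have an adjusted p below 0.05. All untreated values lie between -0.34 and 0.08; at 72 h GND2 (-1.59) and NQM1 (-1.43) lie lowest, while ZWF1 (-0.28) and RKI1 (0.04) lie nearest 0 with TKL1.

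Whether the strain difference in CaCl2 departed from the untreated one was tested as an interaction. edgeR called 0 members at 12, 48 and 72 h, beside 0.0493%, 0.427% and 0.591% of all genes called. Below an unadjusted p of 0.05 were 3, 5 and 5 members. The share of all genes below that unadjusted p was not counted, so these numbers have no background to be read against. DESeq2 called 0, 1 and 3, also with no share of all genes counted. The members nearest the threshold at 72 h were TAL1 at -0.77 ± 0.18 (edgeR adjusted p = 0.052), GND2 at -1.56 ± 0.41 (0.071) and SOL3 at -0.62 ± 0.17 (0.085), and these are the 3 that DESeq2 called. NQM1 was at -1.17 ± 0.37 (adjusted p = 0.13) and TKL2 at -0.94 ± 0.31 (0.15). Without the 3 libraries that stood apart the calls were others: NQM1 at 72 h (-1.22, adjusted p = 0.0156), and NQM1 (-1.65, 0.0026), SOL3 (-0.63, 0.0174) and RKI1 (-0.61, 0.0193) at 48 h. A joint test of the 3 times called 0 members and 0.361% of all genes, and TAL1 was the member with the smallest adjusted p, 0.093. Below an unadjusted p of 0.05 it had 5 members, again with no share of all genes counted. Leaving out crz1 72 h replicate 2 gave 2 calls at 72 h, leaving out crz1 cnb1 72 h replicate 3 gave 1, and leaving out crz1 48 h replicate 1, which stood apart, gave 3 at 48 h and 3 in the joint test.

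The later times in CaCl2 were compared within each strain, 72 h against 12 h. In crz1 cells NQM1 was the 1 member called higher, by a log2 value of 1.75 ± 0.27 (edgeR adjusted p = 0.0018), beside 1.13% of all genes called higher; without crz1 72 h replicate 2 the count was 3. In crz1 cnb1 cells TKL2 (0.86, adjusted p = 0.026) and NQM1 (0.97, 0.042) rose, beside 2.1% of all genes, and GND1 (-0.78, 0.0058), TAL1 (-0.60, 0.014) and SOL3 (-0.54, 0.018) fell, beside 2.33%. The 3 that fell had each been higher at 12 h than in any untreated library. The count of 5 dropped to 3 without crz1 cnb1 12 h replicate 2, to 1 without 12 h replicate 3 or 72 h replicate 2, and to 2 without 72 h replicate 1 or 3. NQM1 lost its call without any 1 of the 6 libraries (adjusted p = 0.0625 to 0.167). Several members had like values in crz1 and crz1 cnb1 whatever their call: TKL2 0.79 and 0.86, SOL4 0.81 and 0.91, and RKI1 -0.51 and -0.49. Without the 3 libraries that stood apart, TKL2, SOL4 and GND2 (0.79, 0.81 and 1.08) were also called higher and RKI1 (-0.51) lower in crz1, and SOL4 (0.92) and ZWF1 (0.53) higher and RKI1 (-0.48) lower in crz1 cnb1. The difference between the strains in this later change was not tested.

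Summed over the 10 genes, which leave out RPE1, the level was 2107 ± 109 TPM in untreated crz1 cells (SD, n = 3). It was 3273 ± 121, 2513 ± 499 and 3496 ± 193 TPM at 12, 48 and 72 h. The crz1 cnb1 sums were 2050 ± 119, 3291 ± 147, 2392 ± 366 and 2660 ± 50.0 TPM. The libraries of the strains overlapped at 0, 12 and 48 h by these sums and were separate at 72 h. TPM sums are not TMM-scaled. On the log2(TPM + 1) scale the median of all genes between the strains shifted by 0.26 at 48 h and 0.12 at 72 h. In normalised CPM at 48 h TAL1 was separate between the strains, while GND1 and TKL1 overlapped. The overlap at 48 h is thus stated for TPM only, and sums of normalised CPM were not computed. At 48 h the spread was wide in crz1 and replicate 1, which stood apart, gave 3087 TPM against 2176 and 2276 in the others. In normalised CPM that library was the lowest for TAL1 (1186, against 1293 and 1432) and the highest for TKL1 (1346, against 893 and 1114). The 6 abundant genes make up nearly all of these sums, since the 4 second paralogs together held 31.2 ± 6.66 TPM in untreated crz1 cells and 129 ± 33.5 TPM at 72 h, and 26.0 ± 5.55 and 61.7 ± 3.38 TPM in crz1 cnb1 cells.

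The second paralog's share of each pair's TPM is given as mean ± SD of 3 libraries, with no test. TKL2 was 0.555% ± 0.0446 of the transketolase pair in untreated crz1 cells, 2.28% ± 0.516 at 12 h and 4.09% ± 1.41 at 72 h, and in crz1 cnb1 cells it went from 0.551% ± 0.0428 to 2.56% ± 0.605. NQM1 went from 2.03% ± 0.181 to 5.08% ± 1.29 of the transaldolase pair in crz1 and from 1.71% ± 0.375 to 3.26% ± 0.229 in crz1 cnb1. GND2 went from 0.918% ± 0.0871 to 2.18% ± 1.21 in crz1, where replicate 3 alone gave 3.58%, and from 0.940% ± 0.0595 to 0.981% ± 0.162 in crz1 cnb1. SOL4 held 4.13% ± 2.29 of its pair in untreated crz1 cells and 6.35% ± 1.25 at 72 h, which overlapped in range, and 3.23% ± 1.84 and 5.90% ± 0.504 in crz1 cnb1, which did not. TKL1, TAL1, GND1 and SOL3 thus remained the main transcripts of their steps in every group.

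**Figure D4:**
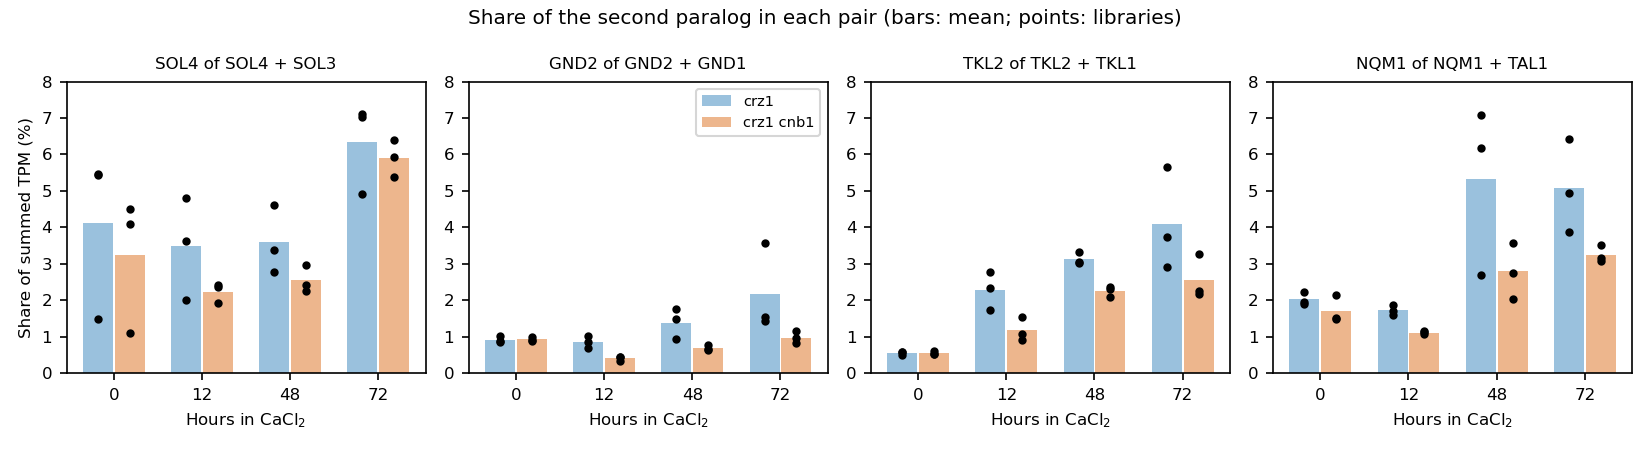
Share of each pair's summed TPM, in percent, held by the second paralog (SOL4, GND2, TKL2 and NQM1) in each group; bars are group means, points are libraries, and the strains have separate colours. TKL2 goes from 0.555% to 4.09% in crz1, while GND2 in crz1 cnb1 starts at 0.940% and ends at 0.981%.

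Across the 24 libraries, the log2 levels of ZWF1 and TKL2 had a Pearson correlation of 0.96, and 0.80 once each group's mean was removed. GND1 and TKL1 had 0.87, and 0.92 within groups, while NQM1 and TKL1 had -0.04, and -0.74 within groups. These describe libraries that share strains, times and replicate numbers. Among 4537 genes ranked by their 8 group means of log2 CPM, those most like ZWF1 were LYP1 (Pearson r = 0.994), COT1 (0.993), AIM46 (0.992), RBD2 (0.989) and HPF1 (0.988). Those most like TKL2 were FLC1 (0.985), ZWF1 itself (0.980), PAL1 (0.978), HST2 (0.976) and ART5 (0.976).

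Around the 10 members, the lists of related genes gave these counts at 72 h against 0 h. Of 8 other pentose phosphate genes, 7 were tested, and 2 rose in crz1 at 72 h and 3 in crz1 cnb1. For this and the following lists, 22.6% of all genes were called higher and 19.8% lower in crz1, and 20.1% and 15.7% in crz1 cnb1, so a list with a few calls lies near the background. RPE1, the ribulose-5-phosphate epimerase of the non-oxidative branch, rose by 0.67 ± 0.16 and 0.46 ± 0.16 on the log2 scale, and SOL2, a paralog of SOL3, by 0.81 ± 0.11 and 0.77 ± 0.11. Of 7 genes that use the pathway's ribose and erythrose phosphates, 2 fell in crz1 and 4 in crz1 cnb1, among them ARO3 and ARO4, which start aromatic amino acid synthesis (ARO3 -0.76 ± 0.15 and -0.94 ± 0.15; ARO4 -0.45 ± 0.16 and -0.80 ± 0.16). At the glucose-6-phosphate branch point and in upper glycolysis, 1 of 9 genes rose and 1 fell in crz1, and 1 rose and 3 fell in crz1 cnb1. There the glucokinase gene GLK1 rose by 1.5 ± 0.36 and 1.64 ± 0.36, and the hexokinase gene HXK2 was at -0.40 ± 0.13 and -0.42 ± 0.13.

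Of 8 other sources of NADPH, 3 rose and 1 fell in crz1 at 72 h, and 5 rose and 1 fell in crz1 cnb1. The malic enzyme gene MAE1 rose by 1.12 ± 0.20 and 1.31 ± 0.20 and the mitochondrial isocitrate dehydrogenase gene IDP1 by 0.74 ± 0.16 and 0.55 ± 0.16. Of 10 genes of NADPH-dependent reactions, 5 rose in crz1, while 2 rose and 2 fell in crz1 cnb1, and 5 were lower in crz1 cnb1 than in crz1 at 72 h, beside 2.81% of all genes. OYE3, an NADPH oxidoreductase gene, rose by 2.10 ± 0.25 and 2.67 ± 0.25, and TSA1, a thioredoxin peroxidase gene, differed between the strains by -0.81 ± 0.17. Of 6 regulators of the pathway, 2 rose and 1 fell in crz1, and 1 rose and 1 fell in crz1 cnb1. STB5 rose by 0.54 ± 0.11 and 0.88 ± 0.11. MSN2 was called higher in crz1 only (0.59 ± 0.18, against 0.32 ± 0.18 in crz1 cnb1), and GCR1 lower in crz1 only (-0.44 ± 0.13, against -0.25 ± 0.13). MSN4 was called lower in crz1 cnb1 only (-1.13 ± 0.39, against -0.95 ± 0.38 in crz1). Between the strains at 72 h, 0 regulators were called. Of the 14 general stress genes, 4 rose in crz1, and 3 rose and 1 fell in crz1 cnb1. Their median log2 change was -0.10 in crz1 and 0.08 in crz1 cnb1, while the small heat shock gene HSP12 rose by 2.83 ± 0.59 and 2.19 ± 0.57. Every call in these lists is by edgeR at an adjusted p below 0.05 over all 6089 genes.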

How the data were processed

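Per the labels, polyA RNA of 24 yeast libraries was sequenced after acid-phenol extraction. The authors deposited a table of raw read counts per gene and a table of TPM; the submitters' processing notes name featureCounts, DESeq2 and the R64 build. The versions, aligner and strandedness were not stated in the labels or headers. Whether reads from overlapping antisense transcripts were told apart is therefore not known, but no member overlaps an annotated gene.

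The count test was edgeR's (version 4.0.16, R 4.3.3; TMM, default filter on low counts by group, robust quasi-likelihood fit of all 24 libraries, Benjamini-Hochberg adjustment over 6089 genes, called at an adjusted p below 0.05). Standard errors are the log2 change divided by the root of F. TPM served for levels between genes, paralog shares and sums. The members and the gene lists were chosen with earlier results of these data known. All 10 members are named; of each other list up to 4 genes with the smallest p at 72 h against 0 h may be named, and the 5 genes most like ZWF1 and TKL2 were ranked among genes with a mean of at least 10 CPM. Promoter windows and coordinates came from the R64 genome and annotation. The procedure was tested on simulated data.

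Same-numbered libraries were taken as paired where every correlation of their deviations from the group means was over 0.1, which held for crz1 at 12 h against 0 h (lowest 0.114), the strains at 0 h (0.56) and the strains at 12 h (0.169). Alternatives were RLE scaling, no filter, the replicate as a block, only the libraries compared, DESeq2 1.42.0, limma 3.58.1 on log2(TPM + 1) and log2(TPM + 0.1), each library left out, and, chosen after seeing the data, leaving out the 3 libraries that stood apart. On the TPM scale changes of low genes are understated. Totals of 21582317 to 22016465 counts per library set the counting precision, which is lowest for the scarce paralogs. Plots used matplotlib 3.10.9 and Python 3.11.15.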

Additional observations from a re-analysis of the deposited data

How the results depend on the processing

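Of 51 called member results over 15 comparisons, 33 were called under every alternative run and 0 reversed, and of 99 not called, 30 were called under at least 1. Numbers of members called that moved by over 1.5 times, beside the reported ones, were as follows. For crz1 cnb1 at 72 h against 0 h (4), a fit of only the compared libraries gave 7. For the strains at 12 h (2), no filter gave 1, only the libraries compared 0, the 3 TPM settings 0 each, and leaving out the 3 libraries that stood apart 5. For the strains at 48 h (5), no filter gave 3, only the libraries compared 0 and the 3 TPM settings 1 each. For the interaction at 48 h (0), DESeq2 gave 1 and leaving out the 3 libraries gave 3. For the interaction at 72 h (0), only the libraries compared and DESeq2 gave 3 each, unfiltered TPM 1 and leaving out the 3 gave 1. For crz1 at 72 h against 12 h (1), DESeq2 gave 4, the 3 TPM settings 2 each and leaving out the 3 gave 5. For crz1 cnb1 there (5), leaving out the 3 libraries gave 8, and for the joint test (0) it gave 3. The cause was not tested. Among the alternatives, the share of all genes called was counted only on the filtered log2(TPM + 1) scale. It was not counted under the others or with 1 library left out. Changes in these numbers of members therefore cannot be set against those of all genes.

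Leaving out 1 library at a time gave 6 calls in each case for crz1 at 12 h against 0 h, 5 to 7 at 48 h and 6 to 8, ZWF1 among them, at 72 h. It gave 5 in each case for crz1 cnb1 at 12 h against 0 h, 3 to 4 at 48 h and 3 to 4 at 72 h. Between the strains it gave 0 at 0 h, 0 to 2 at 12 h, 1 to 5 at 48 h and 4 to 6 at 72 h. For the interactions it gave 0 at 12 h, 0 to 3 at 48 h and 0 to 2 at 72 h, for 72 h against 12 h 1 to 3 in crz1 and 1 to 6 in crz1 cnb1, and for the joint test 0 to 3.

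The block gave 3 calls for the interaction at 72 h and 1 in the joint test, for which no pairing check was run. It gave 4 for crz1 at 72 h against 12 h, which did not pass the check, and moved no other count of calls by over 1.5 times. For crz1 at 12 h against 0 h and the strains at 0 h, which passed, it gave 7 and 0 calls, as without the block. With the block, the strains at 12 h had 3 calls in place of 2. SOL4, at 2.75 to 22.8 normalised CPM, had the widest standard error of the members (0.43 at 72 h against 0 h in both strains), and 0.26 in both without the 3 libraries that stood apart; the cause was not tested.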
